A study of Mus musculus with 6 samples.

Results

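The germ cell niche factors described here are 7 paracrine signals that Sertoli cells supply to germ cells and to their neighbours in the testis: *Gdnf*, *Kitl*, *Cxcl12*, *Dhh*, *Nrg1*, *Hgf* and *Csf1*. They were chosen by gene symbol, without a threshold, and are 7 of the 28262 genes listed in the count table. All 7 passed the filter on low counts that left 14919 genes for testing. RNA-seq was performed on primary Sertoli cells of 20-day-old C57BL/6 mice, with 3 libraries from Pa1F/F mice, whose *Pa1* alleles are floxed and intact and which served as controls, and 3 libraries from Amh-pa1-/- mice, in which Cre recombinase under the *Amh* promoter deletes the floxed *Pa1* alleles. The *Amh* promoter is active in Sertoli cells from fetal life on, so Cre was not switched on at a chosen age. Cells of both genotypes were isolated by enzymatic digestion and cultured at 34 °C and 5% CO2, with insulin, EGF and transferrin in the medium, and dishes were washed to remove germ cells that had not attached. No drug or other agent distinguished the groups. The methods of the study speak of biological replicates without saying whether each came from a separate mouse, pool or culture, so p-values measure the spread between these libraries, part of which may be technical. *Pa1* itself was not analysed here, and the genotype was therefore not checked in the reads.

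Sertoli cells are the somatic nurse cells of the seminiferous tubule, and much of what they give to germ cells is secreted or displayed on their surface. GDNF, a ligand of the GFRA1 and RET receptors, maintains self-renewal of spermatogonial stem cells, and KIT ligand, the product of *Kitl*, sustains differentiating spermatogonia through KIT. CXCL12 attracts CXCR4-bearing spermatogonia, desert hedgehog signals to Leydig and peritubular cells through PTCH1, and neuregulin 1 acts on ERBB receptors. HGF is the ligand of the MET receptor tyrosine kinase, and CSF1 is a growth factor of macrophages and, through CSF1R, of spermatogonial stem cells. Genes for secreted proteins dominate the group by construction. In the GO terms listed with the genes, 6 of the 7 carried the term extracellular space, which 5.29% of annotated tested genes carried, and *Gdnf* carried extracellular region in its place. *Kitl*, *Nrg1* and *Csf1* were annotated as integral membrane components, since their products are made with a membrane anchor.

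The stretches just upstream of the transcription start of *Gdnf* and *Hgf* are shown because these were the 2 factor genes that fell in Amh-pa1-/- cells. Sequences are from RefSeq on GRCm38.p6, the build of the count table, 5′ to 3′ on the + strand, and each ends at the base before the annotated start.
Gdnf, chr15:7809798-7810047: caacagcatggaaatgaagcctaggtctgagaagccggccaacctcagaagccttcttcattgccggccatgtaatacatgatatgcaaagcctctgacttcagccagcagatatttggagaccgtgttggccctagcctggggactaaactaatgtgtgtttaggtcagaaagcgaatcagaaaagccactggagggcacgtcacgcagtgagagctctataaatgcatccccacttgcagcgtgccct
Hgf, chr5:16553245-16553494: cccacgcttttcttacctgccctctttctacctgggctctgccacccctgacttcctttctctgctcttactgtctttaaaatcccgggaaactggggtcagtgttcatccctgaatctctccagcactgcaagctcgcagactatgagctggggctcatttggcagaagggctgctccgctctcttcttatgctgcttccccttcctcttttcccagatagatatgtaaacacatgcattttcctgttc
RefSeq lists 2 starts for *Hgf*, and the one shown coincided with the gene's start in the count table. For *Gdnf*, RefSeq lists 1 start upstream and 1 start inside the gene interval of the count table, and the upstream one is shown. RefSeq promoter windows of 300 bases, 250 before and 50 after the start, were found for 6 of the 7 factors and numbered 8. *Nrg1* had no entry. The AP-1 motif TGACTCA or TGAGTCA, the same site read on either strand, was searched because the study examined JUN, a subunit of AP-1. It occurred in 5.20% of 32851 mouse promoter windows and in 0 of the 8 windows of the factors. The palindromic cAMP response element TGACGTCA occurred in 1.79% of all windows and in 0 of the 8. These letters are absent from these windows, which says nothing about whether either factor acts on the genes.

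Total counts per library ranged from 13203757 to 16231443, and a count of 3, the upper limit that a count of 0 allows, equalled 0.185 to 0.229 CPM, which are counts scaled to the same library size. Normalised counts are counts scaled by library size and TMM factor to a common depth. This scaling centres the genes on no change, and over the 14919 tested genes the log2 fold change had a median of 0.00. Pa1F/F replicate 2 and Amh-pa1-/- replicate 3 stood apart from the other libraries of their genotype. Chi-square per degree of freedom was 2.23 between Pa1F/F replicates 1 and 3 and 1.68 between Amh-pa1-/- replicates 1 and 2, against 18.5 to 30.5 for pairs that included either of them. The close pairs still differed by more than sampling noise and were kept as separate libraries. Whether the libraries of a close pair share a preparation is not given in the sources used here, and if they do, p-values from fits on the close pairs alone are too small. Where a result rests on the libraries standing apart, values without them follow it. The Sertoli cell markers *Sox9*, *Wt1*, *Gata4*, *Clu* and *Cldn11* were abundant in all 6 libraries, whereas *Trf*, *Rhox5* and *Tsx*, which mark mature Sertoli cells in vivo, had at most 15.5 normalised counts in any library. Summed levels of 16 Sertoli cell markers were 16353 to 16582 CPM in Pa1F/F and 9685 to 12455 CPM in Amh-pa1-/- libraries, a sum carried by *Clu*. Of 13 tested markers, *Sox8* and *Inha* were called lower and 0 higher. By the adjusted p-value alone 5 were lower, among them *Gata4* (log2 fold change -0.88, edgeR adjusted p = 0.000325) and *Clu* (-0.69, edgeR adjusted p = 0.0220), and 1 was higher, *Dmrt1* (0.64, edgeR adjusted p = 0.00766). The other 7, with *Wt1* (0.13) and *Sox9* (-0.12) among them, did not pass. In bulk RNA, fewer cells of a type and less RNA per cell cannot be told apart.

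Calls required both an adjusted p-value under 0.05 in edgeR's quasi-likelihood test and a log2 fold change of 1 or more in either direction. Of the 7 factors, 2 were called lower in Amh-pa1-/- cells, *Gdnf* and *Hgf*, and 0 were called higher. Among all tested genes 12.0% were called, 6.56% lower and 5.44% higher. By the adjusted p-value alone, the same 2 factors passed, against 35.3% of tested genes. The libraries of the 2 genotypes did not overlap for 3 of the 7 factors, *Gdnf*, *Hgf* and *Kitl*, against 52.4% of tested genes, a share no larger than that background. The median log2 fold change of the 7 factors was 0.00, with a range from -1.32 to 0.46. Fold changes lay on both sides of 0.

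**Figure D1:**
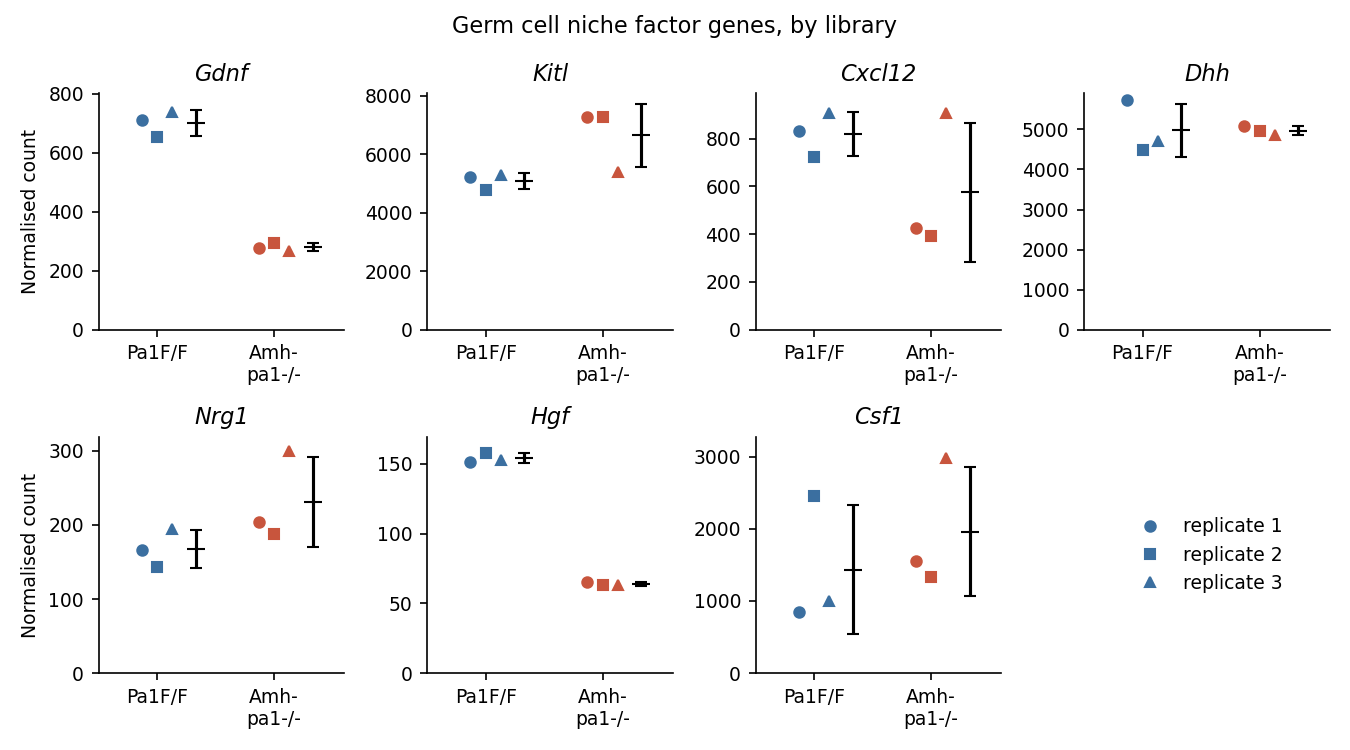
Normalised counts of the 7 niche factor genes in each library, Pa1F/F in blue and Amh-pa1-/- in red, with the replicate number given by the symbol and the mean ± SD (n = 3) in black. *Gdnf* and *Hgf* were lower in every Amh-pa1-/- library, *Dhh* was level, and for *Cxcl12*, *Nrg1* and *Csf1* 1 library of a genotype lay far from the others.

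*Gdnf* (ENSMUSG00000022144, chr15:7811011-7837575, + strand, GRCm38) encodes the glial cell line-derived neurotrophic factor, the principal self-renewal signal of spermatogonial stem cells. Pa1F/F replicates 1, 2 and 3 had 710.4, 654 and 737 normalised counts, and Amh-pa1-/- replicates had 278, 295 and 267. Every knockout library lay well below every control library, and the replicates of each genotype lay close together. Means were 700.4 ± 42.8 and 280.0 ± 14.4 (SD, n = 3 each), so that the level fell by 60.0%. The log2 fold change was -1.32 (SE 0.08, 95% interval -1.52 to -1.12, edgeR adjusted p = 0.000159). An exact two-sided permutation test gave p = 0.1, the smallest that 3 against 3 allows. The coefficient of variation between libraries was 6.10% in controls and 5.14% in knockouts, where counting error alone would give 3.73% and 6.07%. Leaving out any single library kept the log2 fold change between -1.37 and -1.27.

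*Hgf* (ENSMUSG00000028864, chr5:16553495-16620152, + strand) encodes hepatocyte growth factor, a secreted ligand that is activated by proteolytic cleavage. Its level was far lower than that of *Gdnf* and its replicates were closer still. Controls had 151, 158 and 153 normalised counts and knockouts 65.4, 63.1 and 63.1. The genotypes were separated by a wide gap, and in each genotype the libraries differed by less than counting error alone would give, with coefficients of variation of 2.18% and 2.07% against 7.94% and 12.7%. The mean fell by 58.5%, from 154 ± 3.35 to 63.9 ± 1.32 (SD, n = 3 each), with a log2 fold change of -1.27 (SE 0.12, 95% interval -1.55 to -0.99, edgeR adjusted p = 0.000612). The exact permutation test again gave its smallest p, 0.1. Gm42975 and Gm43489 lie within *Hgf* on the same strand, and reads in their shared bases cannot be assigned with certainty.

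The ratio of *Gdnf* to *Hgf* counts within a library, a measure chosen after the values were seen and free of scaling between libraries, was 4.69, 4.14 and 4.82 in controls and 4.25, 4.68 and 4.22 in knockouts. These ranges overlapped, with means of 4.55 ± 0.359 and 4.38 ± 0.255 (SD, n = 3 each). Neither gene's result turned on the libraries standing apart. With Pa1F/F replicate 2 and Amh-pa1-/- replicate 3 left out together, a choice made after seeing the data, the log2 fold changes were -1.34 for *Gdnf* and -1.24 for *Hgf* (edgeR adjusted p = 5.58e-13 and 7.18e-07). Tested against a log2 fold change of 1 rather than 0, *Gdnf* passed (edgeR adjusted p = 0.0263) and *Hgf* did not (edgeR adjusted p = 0.142).

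Levels of other cell types' markers moved with genotype alongside these falls. Summed Leydig cell markers were 837 to 931 CPM in controls and 177 to 332 CPM in knockouts, with the defining genes *Cyp17a1* and *Insl3* at or under 3 counts in every library. Of 10 tested macrophage markers, 8 were called lower, and the 13 on the list summed to 130 to 142 CPM in controls and 76.7 to 94.3 CPM in knockouts. *Mrc1*, a large part of that sum, was at 0.17. The 8 peritubular myoid cell markers summed to 227 to 294 CPM in controls and 844 to 1317 CPM in knockouts, of which *Acta2* alone was called higher. Endothelial markers summed to 117 to 123 and 64.1 to 101 CPM, a sum carried by *Cdh5* (log2 fold change -0.87). Of the 4 tested endothelial markers, *Pecam1* was called lower and *Vwf* higher, at a median of 0.30. The 4 mesothelial markers summed to 4.47 to 7.38 and 26.0 to 34.4 CPM. Of these, *Upk3b*, *Krt19* and *Lrrn4* were called higher and *Msln* was at -0.53. The part of these differences in the levels of *Gdnf*, *Hgf* and the other factors was not tested.

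*Kitl* (ENSMUSG00000019966, chr10:100015630-100100416, + strand) encodes the ligand of the KIT receptor, made in soluble and membrane-bound forms that these counts do not separate. Control replicates had 5219, 4791 and 5296 normalised counts and knockout replicates 7275, 7271 and 5396. All knockout libraries lay above all control libraries, but Amh-pa1-/- replicate 3 exceeded the highest control by little. The means were 5102 ± 272 and 6647 ± 1080 (SD, n = 3 each), and the log2 fold change of 0.38 (SE 0.12, 95% interval 0.09 to 0.67) had an edgeR adjusted p of 0.0505, on the other side of the threshold. The exact permutation test gave p = 0.1. Without Amh-pa1-/- replicate 3 the log2 fold change was 0.51 and the edgeR adjusted p 0.00038. The adjusted p was also under the threshold with DESeq2's Wald test (0.0243), with scaling by library size only in edgeR (0.0356) and without the filter on low counts in edgeR (0.0189). The difference stayed under a log2 fold change of 1 in each of these.

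*Dhh* (ENSMUSG00000023000, chr15:98893031-98898540, − strand), the desert hedgehog gene and a marker of the Sertoli lineage, was the most level of the factors. Controls had 5729, 4489 and 4724 normalised counts and knockouts 5085, 4950 and 4865. The knockout libraries all fell inside the control range. With means of 4980 ± 659 and 4966 ± 111 (SD, n = 3 each), the log2 fold change was 0.00, and its 95% interval from -0.23 to 0.22 excludes a change as large as that of *Gdnf* or *Hgf* (edgeR adjusted p = 0.978).

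*Nrg1* (ENSMUSG00000062991, chr8:31814551-32884029, − strand) encodes neuregulin 1, an EGF-domain ligand of ERBB3 and ERBB4. Its counts were 166, 143 and 194 in controls and 204, 187 and 300 in knockouts after normalisation. Amh-pa1-/- replicate 3 was the highest library, and the groups overlapped between the highest control and the lowest knockout. The log2 fold change was 0.46 (SE 0.21, 95% interval -0.04 to 0.95, edgeR adjusted p = 0.133), and 0.23 without that library. *Nrg1* spans over a megabase and contains Gm26578 on the other strand, and since the strand setting of the counting is not given in the sources used here, reads of the pair cannot be told apart.

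The remaining factors, *Cxcl12* and *Csf1*, depended on the libraries that stood apart. *Cxcl12* (ENSMUSG00000061353, chr6:117168535-117181367, + strand) encodes a chemokine that guides germ cells and haematopoietic cells. Controls had 830, 724 and 908 normalised counts, whereas knockouts had 425, 391 and 908. Amh-pa1-/- replicates 1 and 2 were far below every control, and replicate 3 equalled the highest control. With all libraries the log2 fold change was -0.51 (SE 0.32, 95% interval -1.27 to 0.24, edgeR adjusted p = 0.249). Without Amh-pa1-/- replicate 3 it was -1.01 (edgeR adjusted p = 0.000517), which passed both thresholds, and without Pa1F/F replicate 2 as well it was -1.09 (edgeR adjusted p = 7.83e-12). In the libraries standing apart alone, Amh-pa1-/- replicate 3 was higher than Pa1F/F replicate 2 by 0.33 on the log2 scale. That last value compares 1 library with 1 and has no test. The same library carried more transcripts of contractile genes: summed peritubular myoid cell markers were 1317 CPM in Amh-pa1-/- replicate 3 and 874 and 844 CPM in replicates 1 and 2, and *Myh11* had 1605 against 216 and 164 normalised counts. Their part in the level of *Cxcl12* was not tested.

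*Csf1* (ENSMUSG00000014599, chr3:107741048-107760469, − strand), the colony-stimulating factor gene, was the most variable factor in controls. Its normalised counts were 846, 2459 and 1002 in controls and 1559, 1330 and 2979 in knockouts. The high libraries were Pa1F/F replicate 2 and Amh-pa1-/- replicate 3, the ones that stood apart, and each exceeded the close pair of its own genotype by a log2 difference of 1.41 and 1.04. Coefficients of variation were 62.0% and 45.7%, where the medians over tested genes were 8.25% and 11.5%. The log2 fold change was 0.45 (SE 0.47, 95% interval -0.67 to 1.57, edgeR adjusted p = 0.498). It was 1.08 without Pa1F/F replicate 2 (edgeR adjusted p = 0.0719), 0.01 without Amh-pa1-/- replicate 3 and 0.65 without both (edgeR adjusted p = 4.00e-08). Macrophage markers went both ways in Pa1F/F replicate 2: *Adgre1* (62.0 against 23.6 and 14.7 normalised counts in replicates 1 and 3), *Cd14* (100.7 against 54.4 and 46.1) and *Csf1r* were highest there, and *C1qa* (8.7 against 36.2 and 39.9) was lowest. The part of such cells in the level of *Csf1* was not tested. In the libraries standing apart alone, Amh-pa1-/- replicate 3 was higher than Pa1F/F replicate 2 by 0.28 on the log2 scale, a comparison of single libraries without a test. With all libraries, the interval is too wide to tell a rise from no change.

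**Figure D2:**
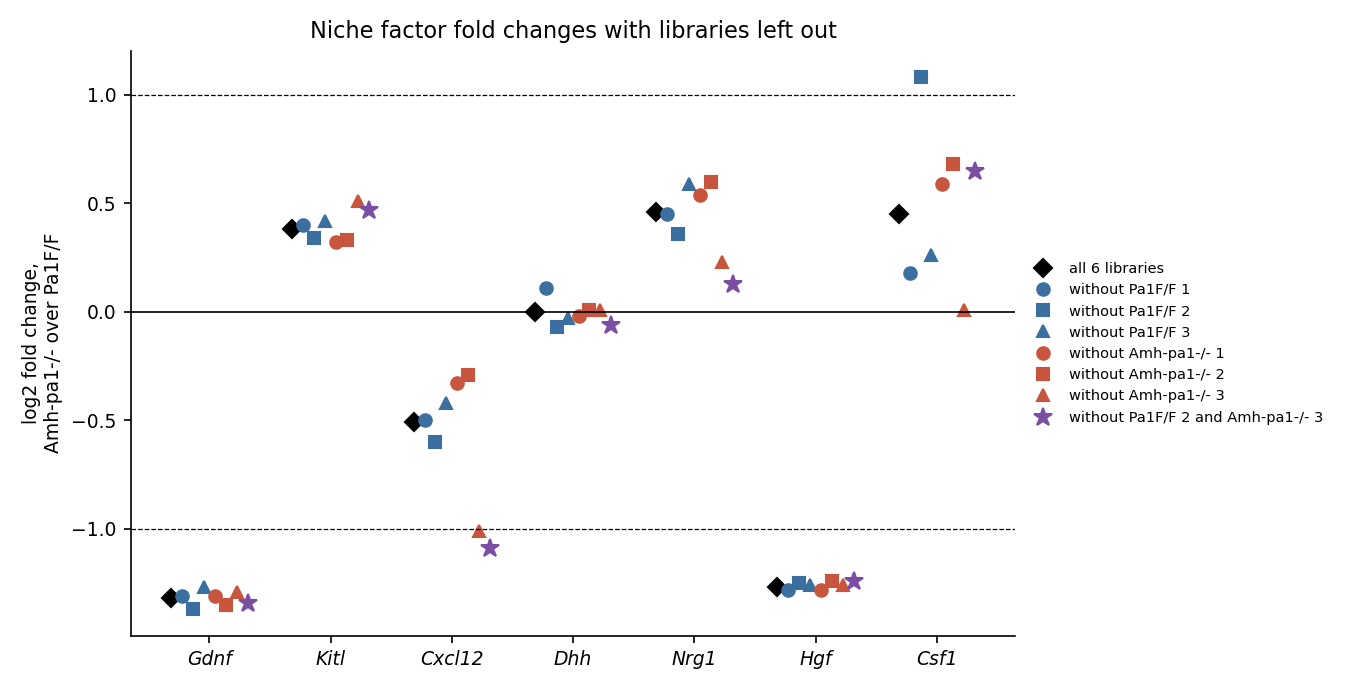
Fitted log2 fold change of each niche factor (Amh-pa1-/- over Pa1F/F) with all 6 libraries (black diamond), with 1 library left out (blue for Pa1F/F, red for Amh-pa1-/-, symbol by replicate) and with both libraries that stood apart left out (purple star), the dashed lines marking a log2 fold change of 1 in either direction. *Gdnf* stayed between -1.37 and -1.27 and *Hgf* between -1.28 and -1.24, whereas *Cxcl12* ranged from -1.09 to -0.29 and *Csf1* from 0.01 to 1.08.

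To compare the factors with each other, levels were expressed per length, as CPM per kilobase of exon, with all annotated exons of a gene merged. In controls *Dhh* was highest at 76.5 ± 10.1, followed by *Kitl* at 41.4 ± 2.21, *Csf1* at 16.6 ± 10.3, *Gdnf* at 12.9 ± 0.789 and *Cxcl12* at 6.68 ± 0.751 CPM per kilobase (SD, n = 3 each). *Hgf* at 0.981 ± 0.0213 and *Nrg1* at 0.682 ± 0.103 were the lowest. *Csf1* and *Gdnf* were the only neighbours in this order whose libraries overlapped, and *Csf1* stood above *Gdnf* by its mean only, through Pa1F/F replicate 2 at 28.4, since its median was 11.6 against 13.1 CPM per kilobase. Among tested genes ordered by their level per length over all 6 libraries of both genotypes, *Dhh* stood at the 97.7th percentile and *Kitl* at the 95.8th. The levels of the 7 factors thus differed widely.

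In knockouts the order was *Dhh* (76.3 ± 1.70), *Kitl* (54.0 ± 8.80), *Csf1* (22.6 ± 10.3), *Gdnf* (5.17 ± 0.266), *Cxcl12* (4.67 ± 2.35), *Nrg1* (0.936 ± 0.247) and *Hgf* (0.407 ± 0.00843 CPM per kilobase). *Hgf* had moved below *Nrg1*, and the libraries of *Gdnf* and *Cxcl12* now overlapped. The first of these shifts depends on the lengths used. In normalised counts, the control mean of *Nrg1* (168) was already above that of *Hgf* (154). Of the summed level of the 7 factors, *Gdnf* made up 7.74% to 9.08% in control libraries and 2.95% to 3.40% in knockout libraries. *Kitl* made up 25.0% to 28.7% and 26.2% to 36.8%. The mixture of factor transcripts was thus poorer in *Gdnf* in every knockout library.

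The balance between the stem cell factor *Gdnf* and the differentiation factor *Kitl* was read as a ratio within each library, again chosen after the values were seen. There were 7.35, 7.33 and 7.18 *Kitl* counts per *Gdnf* count in controls and 26.2, 24.6 and 20.2 in knockouts. The control ratios were nearly equal and each knockout ratio was far above them, at means of 7.29 ± 0.090 and 23.7 ± 3.07 (SD, n = 3 each). Since the libraries of *Gdnf* and *Kitl* did not overlap, in opposite directions, the ratios had to separate, and no test is given. With *Dhh* in place of *Kitl*, the counts per *Gdnf* count were 8.06, 6.87 and 6.41 against 18.3, 16.8 and 18.3. *Kitl* counts per *Dhh* count overlapped between the genotypes.

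**Figure D3:**
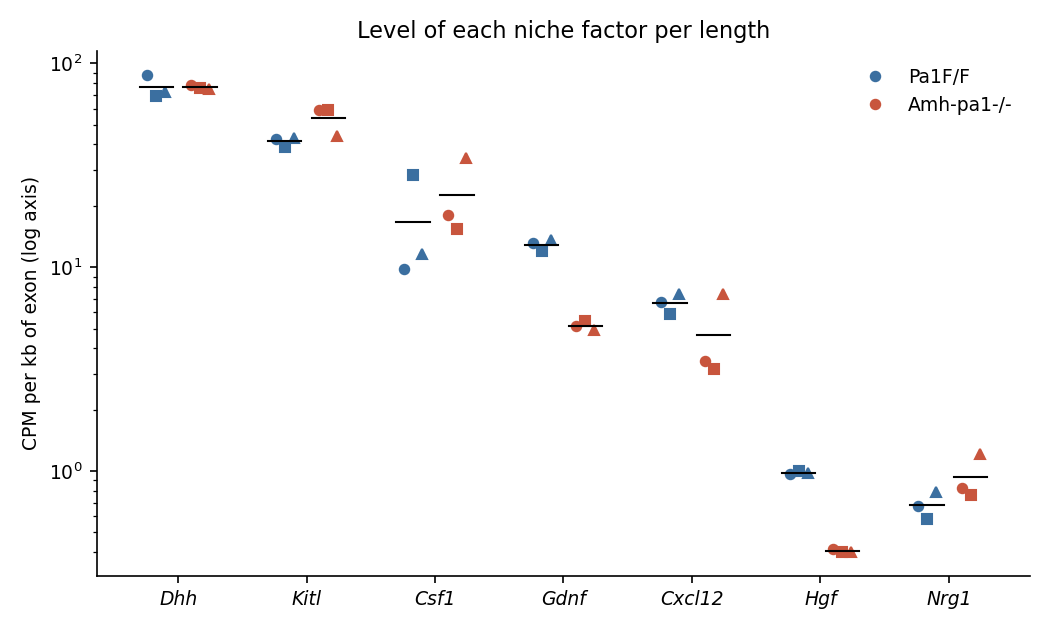
Level of each niche factor per length (CPM per kilobase of exon, log axis) in every library, Pa1F/F in blue and Amh-pa1-/- in red, the symbol giving the replicate (circle 1, square 2, triangle 3) and the bar the mean of 3 libraries. The factors span from 76.5 for *Dhh* to 0.682 for *Nrg1* in controls, and *Hgf* lies under *Nrg1* in knockouts.

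Receptors of the factors were read in the same libraries. Of 20 tested receptor genes on the pathway lists, 9 were called lower and 1 higher, where 6.56% of all tested genes were called lower and 5.44% higher. Their median log2 fold change was -0.76 beside 0.00 for all tested genes. Most receptor genes of germ cells and macrophages had few counts in these cultures, and those lists share genes with the cell type markers. Of the 14 spermatogonial markers, *Zbtb16*, *Sall4*, *Lhx1*, *Sohlh1* and *Stra8* were at or under 3 counts in every library and *Nanos2* was not listed. Of 7 tested markers of that list, 4 were called lower, the germ cell gene *Ddx4* (log2 fold change -1.64, edgeR adjusted p = 0.0373) and the receptor genes *Gfra1*, *Ret* and *Kit*. The summed level of the list was 14.0 to 19.9 CPM in controls and 9.74 to 23.8 CPM in knockouts, the highest value being that of Amh-pa1-/- replicate 3, in which *Id4* had 128 normalised counts against 31.2 and 27.0 in the other knockouts. The part of other cell types in the receptor values was not tested.

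*Gfra1*, the GDNF co-receptor, had 36.2, 27.1 and 48.2 normalised counts in controls and 12.7, 13.5 and 11.0 in knockouts. *Ret*, the signalling receptor that GFRA1 recruits, had 21.7, 31.0 and 30.4 against 6.83, 5.63 and 12.0. Neither gene overlapped between the genotypes, at log2 fold changes of -1.57 (SE 0.29) and -1.74 (SE 0.35, edgeR adjusted p = 0.00726 and 0.00945). Of 5 tested members of the GDNF family list, 3 were called lower, the remaining one being *Gas1*, a membrane protein that binds hedgehog ligands and is related to the GFRA receptors (log2 fold change -3.11). *Gas1* had at most 8.79 normalised counts in knockouts and overlaps AC124392.1 on the other strand. *Gfra1* and *Ret* are also on the list of spermatogonial markers. With the counts of the close pairs summed, neither passed (edgeR adjusted p = 0.0773 and 0.0848). *Kit*, the receptor of KIT ligand which is also on that list, had 23.6, 13.6 and 30.4 normalised counts in controls and 5.86, 4.51 and 7.01 in knockouts, with no overlap (log2 fold change -1.92, SE 0.41, edgeR adjusted p = 0.0116, and 0.0994 with the close pairs summed).

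*Cxcr4*, the signalling receptor of CXCL12, had 94.2, 27.1 and 88.1 normalised counts in controls and 19.5, 16.9 and 18.0 in knockouts. Pa1F/F replicate 2 was much lower than the other controls but still above all knockouts (log2 fold change -1.93, SE 0.48, edgeR adjusted p = 0.0207). The adjusted p rose over the threshold, to between 0.0620 and 0.0731, without Pa1F/F replicate 1 or 3 or Amh-pa1-/- replicate 1 or 2, and to 0.158 with the close pairs summed. *Ackr3*, the scavenging receptor of CXCL12, had 20.8, 20.3 and 21.0 against 3.90, 7.89 and 51.1 normalised counts. As for *Cxcl12* itself, Amh-pa1-/- replicate 3 was high where replicates 1 and 2 were low. The log2 fold change of *Ackr3* was 0.03 (edgeR adjusted p = 0.983) with all libraries and -1.82 (edgeR adjusted p = 0.00932) without that one.

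*Met*, the HGF receptor, fell together with its ligand. It had 205, 169 and 205 normalised counts in controls and 61.5, 81.1 and 47.1 in knockouts, with a wide gap between the groups (log2 fold change -1.61, SE 0.21, edgeR adjusted p = 0.00202). Of 7 tested genes on the HGF and MET list, *Plau*, the urokinase-type plasminogen activator that can activate HGF, was the other one called lower (log2 fold change -1.14). It was at -0.99 without Amh-pa1-/- replicate 2. *Csf1r*, the CSF1 receptor and a macrophage marker, had 42.6, 84.2 and 59.8 against 10.7, 9.01 and 13 normalised counts (log2 fold change -2.49, SE 0.33, edgeR adjusted p = 0.00213). It overlaps *Hmgxb3* on the other strand and moved in the same direction as 7 other called macrophage markers.

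**Figure D4:**
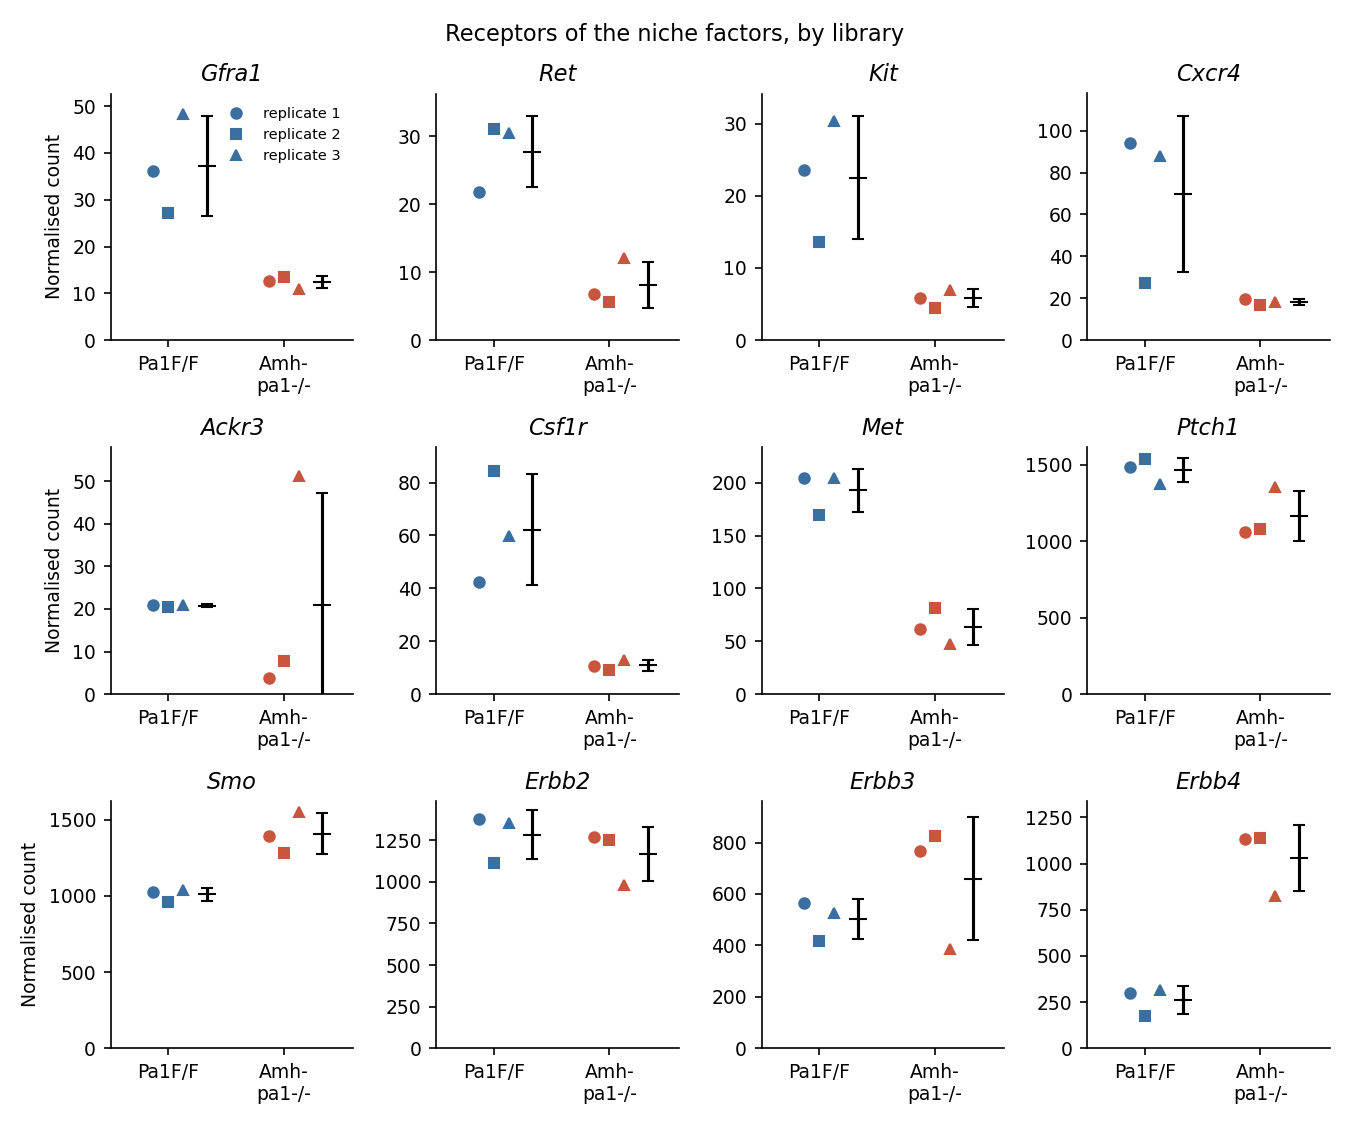
Normalised counts of the direct receptors of the niche factors in each library, Pa1F/F in blue and Amh-pa1-/- in red, symbol by replicate, mean ± SD (n = 3) in black, the lower arm of *Ackr3* being cut at 0. *Gfra1*, *Ret*, *Kit*, *Cxcr4*, *Csf1r* and *Met* were lower in every Amh-pa1-/- library and *Erbb4* higher.

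The hedgehog receptors showed small changes beside the level ligand. *Ptch1*, the receptor that *Dhh* engages and itself a target of the pathway, had a log2 fold change of -0.33 (edgeR adjusted p = 0.0483), and *Smo*, which PTCH1 restrains, of 0.48 (edgeR adjusted p = 0.00500). The adjusted p of *Ptch1* was over 0.05 when any library but Amh-pa1-/- replicate 3 was left out (0.0870 to 0.160), with scaling by library size only (0.0729) and with the replicate block (0.0968, all edgeR). Of 14 tested hedgehog genes, 4 were called lower and 0 higher, against 6.56% and 5.44% of all tested genes. Their median was -0.48. Among the called genes were the co-receptors *Cdon* (-1.33) and *Gas1* (-3.11), and *Scube1*, of a family that aids release of hedgehog ligands (-1.48). Transcripts of the pathway targets *Gli1* and *Hhip* were at most 11.0 and 17.0 normalised counts in any library and were not tested.

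*Erbb4* was the receptor called higher. Neuregulin receptor transcripts otherwise showed no call: *Erbb2* had a log2 fold change of -0.14 (95% interval -0.44 to 0.16) and *Erbb3* of 0.39 (-0.28 to 1.06, edgeR adjusted p = 0.321). For *Erbb3* this rested on Amh-pa1-/- replicate 3, which had 385 normalised counts against 767 and 825 in the other knockouts, and without it the log2 fold change was 0.67 (edgeR adjusted p = 0.00604). *Erbb4* had 296, 173 and 314 normalised counts in controls and 1132, 1139 and 825 in knockouts, clearly separated (log2 fold change 1.98, SE 0.24, edgeR adjusted p = 0.00156). Several predicted genes overlap *Erbb4* on the same strand. Of 13 tested genes of the neuregulin and ErbB list, 3 were called higher and 1 lower, against 5.44% and 6.56% of all tested genes. The others called higher encode the EGFR ligands *Egf* (1.30) and *Ereg* (1.74), both with a gene on the other strand, and the one called lower was *Lrig1*, an inhibitor of ERBB receptors (-1.05). EGF was also present in the culture medium of both genotypes.

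**Figure D5:**
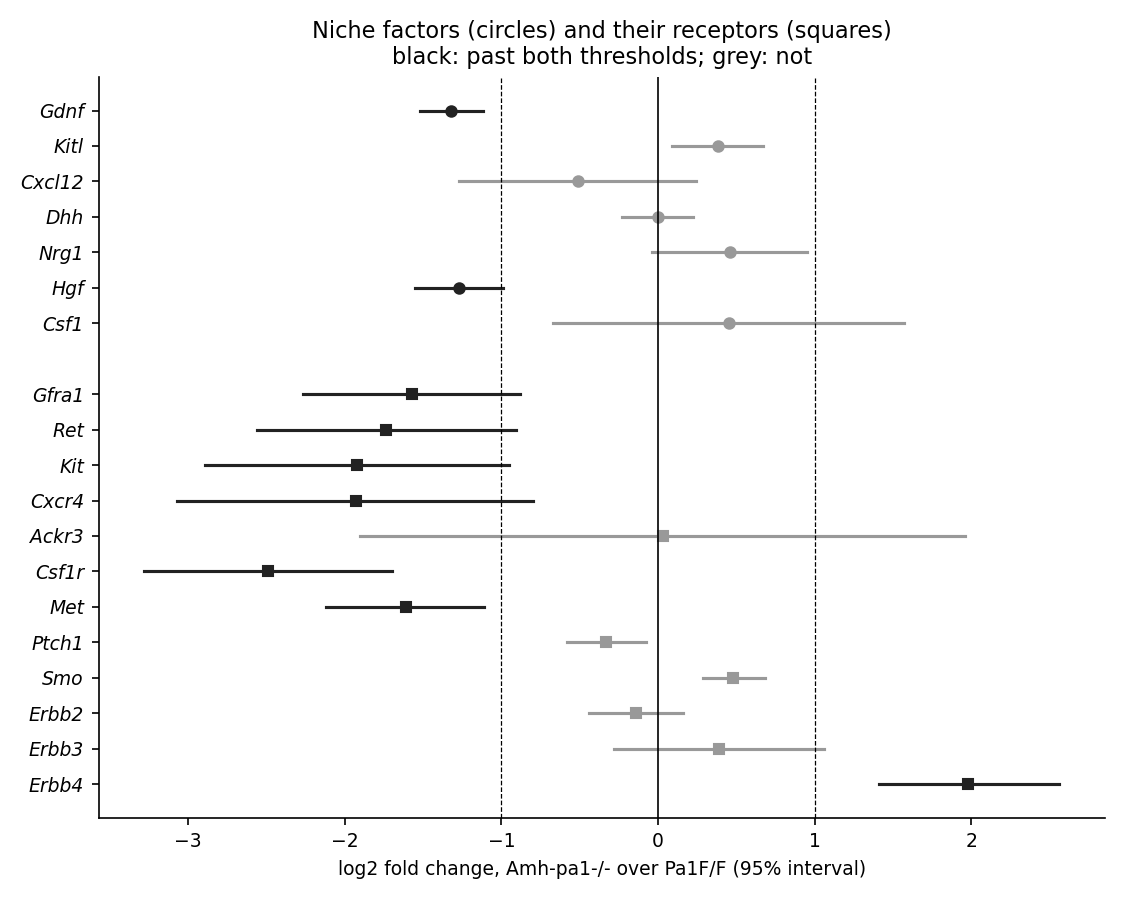
Log2 fold change with 95% interval (Amh-pa1-/- over Pa1F/F, all 6 libraries) of the 7 niche factors (circles) and their direct receptors (squares), with genes past both thresholds in black and the others in grey. *Gdnf* at -1.32 and *Hgf* at -1.27 were the called factors, and of the receptors 6 were called lower and *Erbb4* higher at 1.98.

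KIT ligand, neuregulin 1 and CSF1 are released from the membrane by sheddases, and several other factors are cleaved by proprotein convertases. Of 15 tested genes of this kind, 4 were called higher and 2 lower, against 5.44% and 6.56% of all tested genes. Their median log2 fold change was 0.07. The genes called higher were the metalloproteases *Adam10* (1.31, edgeR adjusted p = 0.00208), *Adam9* (1.15) and *Adam33* (1.23) and the convertase *Pcsk5* (1.96). *Adam10* had 5177, 4819 and 5619 normalised counts in controls and 14827, 14327 and 9479 in knockouts, well apart. *Adam33* had at most 22.5 normalised counts, and its adjusted p was over the threshold when any library but Amh-pa1-/- replicate 3 was left out. *Adam9* was at 0.99 without Pa1F/F replicate 2. *Adam8* (-1.46) and the convertase *Pcsk6* (-2.81) were called lower, and *Adam17*, a sheddase of many growth factors, was at -0.13 (edgeR adjusted p = 0.426).

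Among 23 tested genes for other factors directed at germ cells, 3 were called lower and 1 higher, against 6.56% and 5.44% of all tested genes. Their median was -0.26. Those called lower were the inhibin subunit genes *Inha* (-1.23) and *Inhbb* (-1.0), whose products feed back on the pituitary, and *Mdk*, the heparin-binding growth factor midkine (-1.97). *Inhbb* lay at the fold threshold and was between -0.96 and -0.89 without Pa1F/F replicate 1 or Amh-pa1-/- replicate 1 or 2. The one called higher was the neurotrophin gene *Bdnf* (1.55). Of 21 tested regulators of niche factor output, 2 were called lower and 1 higher, against the same 6.56% and 5.44% of all tested genes. Those called lower were *Sox8* (-1.85) and *Cebpb* (-1.45). The regulator called higher was *Hes1*, a NOTCH target and transcriptional repressor (1.33). *Hes1* rested on Amh-pa1-/- replicate 3, with 305, 336 and 793 normalised counts in knockouts against 191, 174 and 207 in controls, and was at 0.75 without that library. It also lost its call without any 1 of the Pa1F/F libraries (edgeR adjusted p = 0.0806 to 0.0935). *Fshr*, through which FSH reaches Sertoli cells, was not called, at 0.07.

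Over all the pathway lists, 103 of 128 genes were tested, 19 were called lower and 9 higher, and the median log2 fold change was -0.02. Among all tested genes 6.56% were called lower and 5.44% higher. These shares are also the background for each pathway or marker list above, and no list was tested as a set. Of the genes named from these lists, *Ptch1*, *Smo*, *Cdon*, *Erbb2*, *Lrig1*, *Adam8*, *Adam17*, *Pcsk6* and *Cebpb* also overlap another annotated gene, and their counts are uncertain to that extent.

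The genes whose profile over the 6 libraries was most like that of the called factors were named by Pearson correlation of log2 CPM among 10492 genes with a mean of at least 100 normalised counts, as a description. For *Gdnf* these were *Casp6*, an executioner caspase gene (r = 0.9992), the signalling adaptor gene *Shc4* (0.9988) and the bromodomain gene *Baz2b* (0.9988). For *Hgf* they were *Fkbp5*, a glucocorticoid-responsive immunophilin gene, *Shisa6* and the ribosomal protein gene *Rpl34*, all at 0.9994. *Rpl34* has near-identical processed copies and its counts are uncertain. With 6 points that fall into 2 genotypes, any gene with closely spaced replicates and a difference between the genotypes reaches such values.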

How the data were processed

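RNA-seq counts of 6 libraries of mouse Sertoli cells, 3 Pa1F/F and 3 Amh-pa1-/-, were used, grouped by their labels. Per the methods of the study, sequencing libraries were prepared with NEBNext Ultra reagents, and the authors aligned reads to GRCm38 with HISAT2 2.1.0 and counted reads per gene with HTSeq 0.6.0. The deposited counts are whole numbers per gene, not normalized. The table also holds the authors' own comparison (mean, fold change, p-value and adjusted p-value per gene), which was not used. Without molecular identifiers, floors cover counting error only.

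Genes were filtered with filterByExpr (minimum count 10, minimum total count 15), scaled by TMM (factors 0.990 to 1.03) and tested with edgeR 4.0.16 (quasi-likelihood F-test, no covariates) in R 4.3.3, with Benjamini-Hochberg adjustment across 14919 genes. The methods of the study name DEGseq, and its 2 thresholds were kept. DESeq2 1.42.0 and limma 3.58.1 served as alternatives, and tables were made with Python 3.11.15. Exact permutation tests were two-sided. Other alternatives were the normalization, the filter, the fold threshold, a replicate block, summed close pairs and leaving out libraries. Exon lengths came from GENCODE vM39 (GRCm39) by gene ID, found for 14787 of the tested genes, and its coordinates were not used. On simulated counts with 197 changed genes among 14921 tested, at a log2 fold change of 2, 93.4% were recovered and 4.66% of calls were unchanged genes. All 7 members, their direct receptors, every other list gene past both thresholds and the 3 genes most like each called member are named, apart from list genes not reported here. Members and lists were chosen with earlier results of these data known.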

Additional observations from a re-analysis of the deposited data

How the results depend on the processing

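*Gdnf* and *Hgf* stayed lower and past both thresholds under all alternatives, except that *Hgf* did not pass when tested against a threshold of 1 in place of 0 (log2 fold change -1.27, edgeR adjusted p = 0.142), which is stricter by construction. That test left 538 differentially expressed genes (306 lower, 232 higher), 1 niche factor lower, and 4 pathway genes lower and 3 higher. Without a fold threshold there were 5266 (2548 lower, 2718 higher), with 31 pathway genes lower and 21 higher. Summing the close pairs, which leaves 2 libraries per genotype, gave 883 genes (455 lower, 428 higher) and 9 pathway genes lower; *Gas1*, *Scube1*, *Plau*, *Adam9*, *Adam33*, *Inhbb*, *Sox8* and *Hes1* were among the genes that lost their call.

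Leaving out 1 library gave 1466 to 2076 differentially expressed genes (784 to 1216 lower, 670 to 860 higher), 2 to 3 niche factors lower and 0 higher, and 16 to 25 pathway genes lower and 7 to 11 higher. *Cxcl12* ranged from -1.01 to -0.29 and was -1.09 without both libraries that stood apart, an alternative chosen after seeing the data. *Ackr3* ranged from -1.82 to 0.53 and turned negative with limma-voom (-0.77), with the replicate block (-0.47), without Amh-pa1-/- replicate 3 (-1.82) and without both libraries (-1.84), and the cause was not tested. Over the named pathway genes and all alternatives, 486 values kept their direction and whether they were called. A further 62 lost a call, 2 gained one and 4 changed sign. A gene without a call could still cross the adjusted p threshold alone and count as kept, as *Ptch1* did with scaling by library size only.

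Deviations of same-numbered libraries from the mean of their genotype correlated at 0.108, -0.164 and -0.179. The highest correlation, 0.214, was between Pa1F/F replicate 2 and Amh-pa1-/- replicate 3, the libraries that stood apart. Since deviations within a genotype are tied to each other, these values cannot show whether the samples were paired. With the replicate block 1558 genes were called, 1528 of them shared with the 1791 called without it, and *Gdnf* and *Hgf* kept their calls (edgeR adjusted p = 0.00407 and 0.00794). At low counts, such as those of *Ddx4*, *Kit*, *Gas1* and *Ret* in knockouts, counting error limits what can be read.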
